A study of Mus musculus with 8 samples.

Results

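Genes of the Wnt pathway were followed in 8 groups of sorted back-skin keratinocytes, with 1 array in each group. They comprise 44 genes for ligands, receptors, inhibitors, Tcf and Lef factors and Wnt-responsive genes, chosen by name for their place in the pathway. The choice was made with earlier results of these data known, so the shares of members that passed only describe this list. Of the 44, 43 have a probe set annotated with that gene alone, among 19938 genes of the table, and Tcf7 was not analysed here for want of one. A gene with several probe sets was read from its brightest probe set by mean. The test took 34 of the members and 10720 genes in all, those whose log2 level reached 7.70, the median over named genes, in at least 2 arrays. The 8 groups are K14Snail and wild type CD34 positive, K14Snail and wild type CD34 negative, K14Snail and wild type Mts24 positive, and K14Snail and wild type Mts24 negative cells. All mice had the CD1 background, were 8 weeks old and were of mixed sex. RNA for a CD34 array came from 11 pooled mice, and for an Mts24 array from 9 pooled mice. K14Snail mice carry the transcription factor Snail under the keratin 14 promoter, which is active in basal keratinocytes of the epidermis and in the outer root sheath of the hair follicle. CD34 marks the follicle bulge, and Mts24 is an antibody to an upper follicle antigen. Cells were taken with magnetic beads after trypsin digestion of the skin, so each fraction is enriched and not pure, and every negative fraction holds all remaining cells.

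Wnt proteins are secreted lipid-modified ligands that bind a Frizzled receptor together with Lrp5 or Lrp6. In the canonical branch this stabilises beta-catenin, which then activates target genes together with Tcf and Lef factors. Without a Wnt signal the same DNA sites are held by Tcf factors with repressors. Secreted Sfrp, Dkk and Wif proteins block ligand or receptor, while Axin2, Nkd1, Nkd2, Znrf3, Rnf43 and Notum are induced by the pathway and dampen it. In mouse skin Wnt signalling is required to form hair follicles and to start hair growth, the resting bulge is known for expressing Wnt inhibitors and Tcf7l1, and basal epidermal cells make Wnt ligands themselves.

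The labels were checked first. Snai1, the gene for Snail, lay between 10.84 and 11.04 in the 4 K14Snail arrays, against 7.86 to 8.16 in the 4 wild type arrays. Cd34 was at 13.29 in K14Snail and 13.57 in wild type CD34 positive cells, against 6.27 and 6.12 in the CD34 negative cells of the same genotypes. Plet1, which carries the Mts24 antigen, was at 12.64 in K14Snail and 12.88 in wild type Mts24 positive cells, against 9.16 and 9.91 in the Mts24 negative cells. Krt14, a basal keratinocyte keratin, was at 13.28 to 13.79 in all 8 arrays. All 12 listed bulge markers reached 7.70 in the 4 positive arrays, Dkk3, Wif1 and Tcf7l1 being members of both lists. T cell markers had a mean log2 level of 7.08 to 7.59 in the positive arrays, against 8.81 to 9.39 in the negative arrays, and 2 to 4 of the 9 on the array reached 7.70 in the positive arrays, against 5 to 7 in the negative arrays. Cd3e and Cd3g were at 7.56 to 9.29 in the positive arrays and at 10.68 or more in the negative arrays. None of the 6 endothelial markers reached 7.70 in any array, nor did Pdgfra, Lum, Dpt and Dcn of the 9 fibroblast markers. Of the 5 fibroblast markers tested Fbln1 (2.71 ± 0.20, adjusted p = 0.000732), Col1a2 (0.95 ± 0.10, adjusted p = 0.00235) and Fbln2 (0.84 ± 0.12, adjusted p = 0.00633) were higher in CD34 positive cells, and Fbln1 was at 11.39 in K14Snail and 11.49 in wild type CD34 positive cells, against 9.04 in K14Snail and 8.42 in wild type CD34 negative cells. The part of such cells in the differences between fractions was not tested.

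Promoters of 5 members are shown with the sites searched in them. Of these, 4 are from the 11 members that passed in both sorts in the same direction. Fzd7 and Tcf7l1 were higher, and Wnt3 and Fzd10 lower, in the positive fractions. Wnt10b is shown for its genotype difference, and Fzd8, the other genotype call, is not shown. Each of the 5 holds the site marked in it, so they are examples and do not show how common the sites are. The sequences are RefSeq's, build GRCm38.p6, each the 250 bases before the annotated start, 5′ to 3′ on the gene's strand. Capitals mark the Tcf and Lef core CTTTG or its reverse complement CAAAG in the first 4, and the Snail E-box CAGGTG, whose reverse complement is CACCTG, in Wnt10b.
Fzd7, chr1:59481897-59482146, plus strand: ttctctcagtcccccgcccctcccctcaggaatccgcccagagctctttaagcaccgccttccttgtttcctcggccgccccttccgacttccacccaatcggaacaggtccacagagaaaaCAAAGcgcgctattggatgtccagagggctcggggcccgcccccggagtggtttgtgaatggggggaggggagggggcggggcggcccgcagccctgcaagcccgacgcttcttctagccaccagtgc
Tcf7l1, chr6:72789046-72789295, minus strand: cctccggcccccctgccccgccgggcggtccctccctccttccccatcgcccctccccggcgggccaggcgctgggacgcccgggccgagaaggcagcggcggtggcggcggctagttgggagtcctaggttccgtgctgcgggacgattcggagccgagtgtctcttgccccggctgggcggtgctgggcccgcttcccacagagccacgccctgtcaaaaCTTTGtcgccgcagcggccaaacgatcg
Wnt3, chr11:103773925-103774174, plus strand: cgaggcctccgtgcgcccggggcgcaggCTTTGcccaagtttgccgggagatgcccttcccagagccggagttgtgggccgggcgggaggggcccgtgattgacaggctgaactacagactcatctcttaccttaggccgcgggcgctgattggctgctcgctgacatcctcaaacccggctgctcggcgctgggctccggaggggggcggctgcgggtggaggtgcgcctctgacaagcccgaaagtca
Fzd10, chr5:128600856-128601105, plus strand: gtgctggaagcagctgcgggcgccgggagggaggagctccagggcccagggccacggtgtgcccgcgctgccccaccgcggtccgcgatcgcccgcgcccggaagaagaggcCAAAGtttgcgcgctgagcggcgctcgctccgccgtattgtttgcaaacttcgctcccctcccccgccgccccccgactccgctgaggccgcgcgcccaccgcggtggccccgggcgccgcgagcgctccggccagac
Wnt10b, chr15:98778151-98778400, minus strand: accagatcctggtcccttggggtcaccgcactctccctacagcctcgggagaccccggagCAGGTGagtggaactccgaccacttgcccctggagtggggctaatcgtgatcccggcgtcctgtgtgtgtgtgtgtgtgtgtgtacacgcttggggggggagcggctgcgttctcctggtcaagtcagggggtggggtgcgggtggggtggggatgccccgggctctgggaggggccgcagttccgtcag
The table of promoters matched 28 of the 44 members, with 35 promoters. On either strand, the core CTTTG was in 16 of the 35 (45.7%), against 48.6% of all 32851 promoters. The longer Tcf and Lef sites CTTTGAA and CTTTGAT, each of which contains the core, were in 3 (8.57%), against 7.48% of all. These were Dkk1, Sp5 and Wnt11. CAGGTG was in 7 of the 35, against 17.2% of all, and these belong to Ascl2, Fzd5, Nkd1, Wif1, Wnt10b, Wnt3a and Wnt4. The members' promoters thus held each of these letter runs about as often as promoters at large, and a match is no evidence of a bound site.

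**Figure D1:**
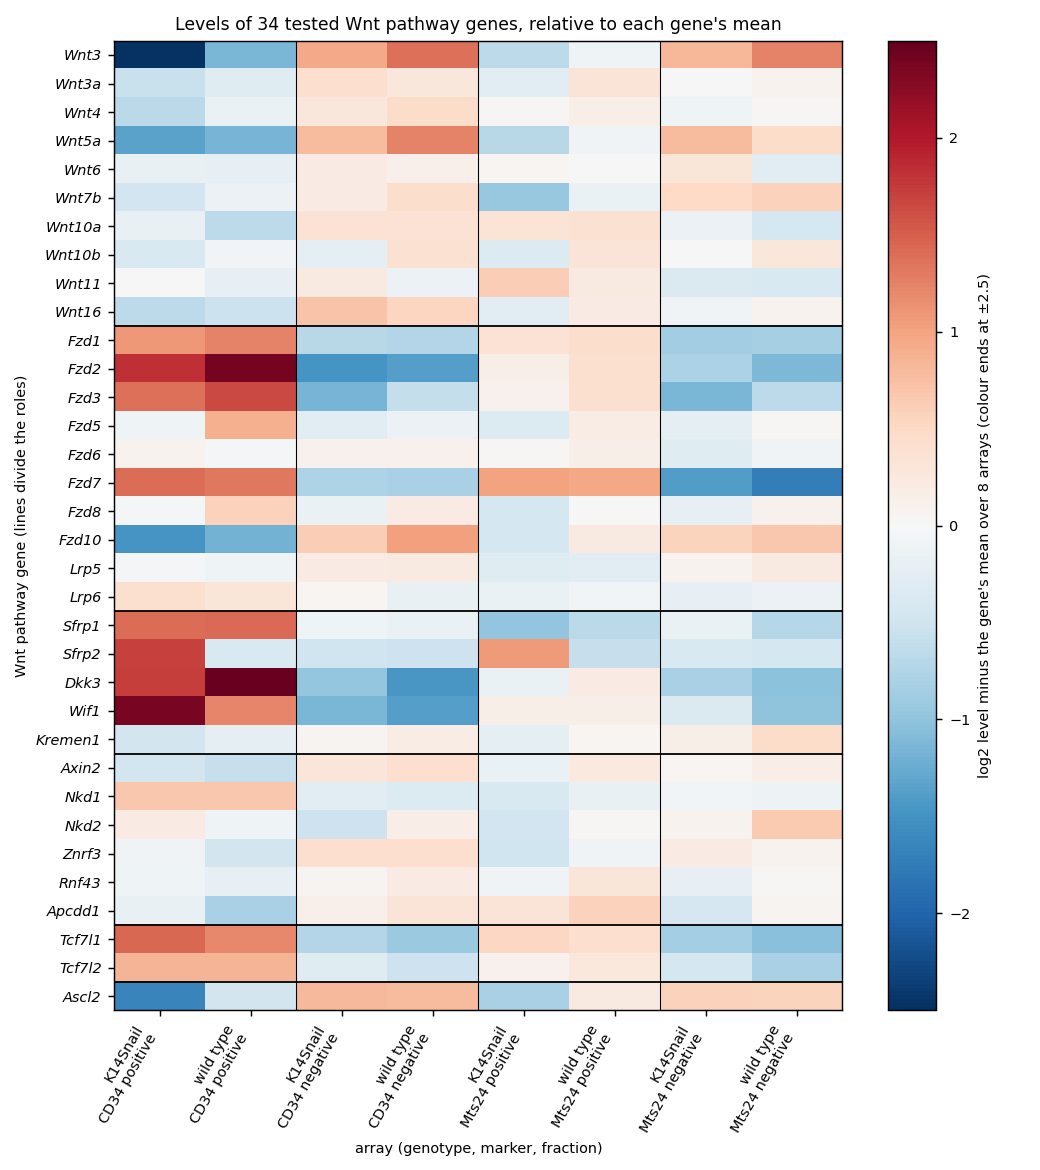
Log2 level of the 34 tested Wnt pathway genes (rows, in italics) in the 8 arrays (columns), coloured by the difference from the gene's own mean over the 8 arrays, red above and blue below. Among the ligands Wnt3 and Wnt5a are blue in the CD34 positive columns, while Fzd1, Fzd2, Fzd3, Fzd7, Dkk3, Wif1 and Tcf7l1 are red there.

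CD34 positive cells were set against CD34 negative cells to see how the pathway differs between bulge and other keratinocytes, with the genotypes as the 2 pairs. Of the 34 tested members 21 passed, 10 higher and 11 lower, where 23.7% of all genes tested passed, 12.1% higher and 11.6% lower. The median difference of the 34 was -0.21, and that of all genes was -0.03. Fractions of mixed cells were measured, so fewer cells of a type and less RNA per cell cannot be told apart. A difference is given on the log2 scale as the positive minus the negative fraction with limma's moderated standard error, and a p is adjusted by Benjamini-Hochberg over all genes tested.

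Frizzled genes, which encode the receptors, split into a group that was higher in CD34 positive cells and Fzd10, which was lower. Fzd2 was at 11.81 in K14Snail and 12.37 in wild type CD34 positive cells, against 8.50 in K14Snail and 8.60 in wild type CD34 negative cells. Its difference of 3.54 ± 0.22, 11.6-fold higher, adjusted p = 0.000488, was the largest among the members that rose. Fzd3 was at 9.93 in K14Snail and 10.19 in wild type CD34 positive cells, against 7.39 in K14Snail and 7.96 in wild type CD34 negative cells (2.38 ± 0.11, 5.22-fold higher, adjusted p = 0.000276), with its K14Snail negative array under 7.70. Both Fzd2 and Fzd3 read higher in wild type than in K14Snail in either fraction of this sort. Fzd7 was at 12.47 in K14Snail and 12.39 in wild type CD34 positive cells, against 10.31 in K14Snail and 10.26 in wild type CD34 negative cells, and rose by 2.15 ± 0.11, 4.43-fold higher, adjusted p = 0.000303. Fzd1 was at 11.55 in K14Snail and 11.72 in wild type CD34 positive cells, against 9.78 in K14Snail and 9.74 in wild type CD34 negative cells, and rose by 1.88 ± 0.09, 3.67-fold higher, adjusted p = 0.000283. In each of these 4 genes the positive and negative arrays lay far apart in either genotype. Fzd10 ran the other way, at 7.99 in K14Snail and 8.28 in wild type CD34 positive cells, against 10.08 in K14Snail and 10.48 in wild type CD34 negative cells (-2.15 ± 0.14, 4.42-fold lower, adjusted p = 0.000524). Fzd6, which in mice directs hair orientation, lay between 10.61 and 11.06 in all 8 arrays (-0.09 ± 0.12, adjusted p = 0.647). Fzd5 (0.61 ± 0.21, adjusted p = 0.0892) and Fzd8 (0.25 ± 0.11, adjusted p = 0.146) did not pass either. Neither did the co-receptors Lrp5 (-0.28 ± 0.09, adjusted p = 0.0822) and Lrp6 (0.42 ± 0.12, adjusted p = 0.0584), whose levels stayed between 10.30 and 10.93 over the 8 arrays. Fzd4 did not reach 7.70 in any array and was not tested, its CD34 positive arrays reading 6.25 in K14Snail and 6.79 in wild type.

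Wnt ligands were lower in CD34 positive cells wherever they passed, with 7 of the 10 tested ligands lower and 0 higher. Of all genes tested 11.6% were lower and 12.1% higher. Wnt3 fell most, at 7.67 in K14Snail and 8.99 in wild type CD34 positive cells, against 11.08 in K14Snail and 11.52 in wild type CD34 negative cells (-2.96 ± 0.24, 7.81-fold lower, adjusted p = 0.00103), so that its 2 negative arrays read over 11 and its K14Snail positive array was under 7.70. Wnt5a, a ligand best known for signalling without beta-catenin, was at 6.67 in K14Snail and 6.85 in wild type CD34 positive cells, against 8.79 in K14Snail and 9.25 in wild type CD34 negative cells (-2.26 ± 0.23, 4.8-fold lower, adjusted p = 0.00194). Both positive arrays of Wnt5a lay under 7.70, so the size of its difference depends on the background. Wnt5a would not have passed the filter without negative arrays, so its place in the count is no support. Without any filter its adjusted p was 0.00121. Wnt16 was at 7.39 in K14Snail and 7.50 in wild type CD34 positive cells, against 8.76 in K14Snail and 8.57 in wild type CD34 negative cells (-1.21 ± 0.17, 2.32-fold lower, adjusted p = 0.00579), its positive arrays also being under 7.70. Smaller falls were seen in 4 further ligands. Wnt4, which keratinocytes make and release, was at 9.16 in K14Snail and 9.68 in wild type CD34 positive cells, against 10.13 in K14Snail and 10.30 in wild type CD34 negative cells (-0.79 ± 0.14, adjusted p = 0.0109). Wnt3a, a ligand of the canonical branch, was at 7.45 in K14Snail and 7.72 in wild type CD34 positive cells, against 8.44 in K14Snail and 8.29 in wild type CD34 negative cells (-0.78 ± 0.18, adjusted p = 0.0287). Wnt10a, a ligand of hair and tooth development, was at 10.09 in K14Snail and 9.61 in wild type CD34 positive cells, against 10.62 in K14Snail and 10.62 in wild type CD34 negative cells (-0.77 ± 0.15, adjusted p = 0.0166). The positive arrays of these 3 genes all read below the negative arrays of the CD34 sort. Wnt7b, a ligand of the growing follicle, was at 8.98 in K14Snail and 9.30 in wild type CD34 positive cells, against 9.66 in K14Snail and 9.89 in wild type CD34 negative cells (-0.63 ± 0.17, adjusted p = 0.0478). The 3 tested ligands that did not pass also had values under 0, at -0.36 ± 0.16 for Wnt6, -0.31 ± 0.13 for Wnt10b and -0.14 ± 0.12 for Wnt11. Wnt7a lay under 7.70 in all 8 arrays. T cell markers were lower in the same positive arrays, and their part in the ligand differences was not tested. Wnt4 has 2 probe sets, and its call held with their mean in place of the brighter one.

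Among secreted inhibitors, 3 of the 4 tested were higher in CD34 positive cells, where 12.1% of all genes tested were higher. Sfrp1, a soluble Wnt-binding protein related to the Frizzleds, was at 12.01 in K14Snail and 12.03 in wild type CD34 positive cells, against 10.52 in K14Snail and 10.46 in wild type CD34 negative cells (1.53 ± 0.20, 2.89-fold higher, adjusted p = 0.00415). Dkk3, a divergent member of the Dickkopf family, was at 10.70 in K14Snail and 11.45 in wild type CD34 positive cells, against 8.01 in K14Snail and 7.53 in wild type CD34 negative cells (3.31 ± 0.29, 9.89-fold higher, adjusted p = 0.00129). Wif1, which binds Wnt ligands outside the cell, was at 10.46 in K14Snail and 9.30 in wild type CD34 positive cells, against 6.95 in K14Snail and 6.71 in wild type CD34 negative cells (3.05 ± 0.28, 8.3-fold higher, adjusted p = 0.00139). The arrays of either fraction do not overlap for any of the 3, and the Wif1 negative arrays and the wild type Dkk3 negative array were under 7.70. Of the negative arrays of both sorts Wif1 reached 7.70 only in the K14Snail Mts24 negative one. It would not have passed the filter without positive arrays, so its place in the count is no support. Without any filter the adjusted p of Wif1 was 0.00078. Sfrp2 (1.17 ± 0.55, adjusted p = 0.189) did not pass, its 2 pairs differing by 2.21 in K14Snail and 0.14 in wild type. Kremen1, a cell surface partner of Dkk1, was at 10.62 in K14Snail and 10.85 in wild type CD34 positive cells, against 11.14 in K14Snail and 11.26 in wild type CD34 negative cells, a small fall (-0.47 ± 0.09, adjusted p = 0.0179).

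The Tcf factors that could be tested were both higher in CD34 positive cells. Tcf7l1, which mostly represses Wnt targets and is a known bulge factor, was at 9.59 in K14Snail and 9.36 in wild type CD34 positive cells, against 7.42 in K14Snail and 7.23 in wild type CD34 negative cells (2.15 ± 0.09, 4.44-fold higher, adjusted p = 0.000216), the negative arrays being under 7.70. It reached 7.70 in the 4 positive arrays alone, so its place in the count is no support. Without any filter the adjusted p was 0.000109. Tcf7l2 was at 10.57 in K14Snail and 10.57 in wild type CD34 positive cells, against 9.41 in K14Snail and 9.21 in wild type CD34 negative cells (1.26 ± 0.15, 2.4-fold higher, adjusted p = 0.00288). Lef1, the activator of the hair matrix, reached 7.70 in 1 array only and was not tested, at 8.29 in K14Snail and 7.55 in wild type CD34 positive cells, against 6.79 in K14Snail and 6.52 in wild type CD34 negative cells. Of the genes known to be induced by the pathway, Axin2, a scaffold of the beta-catenin destruction complex, was lower at 9.30 in K14Snail and 9.17 in wild type CD34 positive cells, against 10.06 in K14Snail and 10.18 in wild type CD34 negative cells (-0.88 ± 0.15, 1.84-fold lower, adjusted p = 0.00981). Nkd1, which binds Dishevelled, was at 8.40 in K14Snail and 8.40 in wild type CD34 positive cells, against 7.46 in K14Snail and 7.38 in wild type CD34 negative cells. It passed the filter only through those 2 positive arrays, so its place in the count is no support, and its difference without any filter was 0.98 ± 0.11 (adjusted p = 0.00212). Ascl2, a Wnt-responsive factor known from mouse intestinal stem cells, was at 7.32 in K14Snail and 8.52 in wild type CD34 positive cells, against 9.78 in K14Snail and 9.76 in wild type CD34 negative cells (-1.85 ± 0.35, 3.6-fold lower, adjusted p = 0.0141). Znrf3 (-0.69 ± 0.19, adjusted p = 0.0519) and Rnf43 (-0.29 ± 0.14, adjusted p = 0.198), ligases that remove Frizzled receptors from the surface, did not pass. Nor did Apcdd1, a membrane inhibitor (-0.71 ± 0.29, adjusted p = 0.137), or Nkd2 (0.22 ± 0.26, adjusted p = 0.595). Of the 6 feedback inhibitors 1, Nkd1, was called higher and 1 lower, a share near the 23.7% of all genes called in this comparison.

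Under every alternative tried the CD34 calls of Fzd1, Fzd2, Fzd3, Fzd7, Fzd10, Wnt3, Wnt5a, Wnt16, Sfrp1, Dkk3, Wif1, Tcf7l1 and Tcf7l2 held, and that of Nkd1 held wherever it was tested, the filter on 4 arrays having removed it. Leaving out 1 CD34 negative array ended the calls of Wnt4 (adjusted p up to 0.0726), Wnt10a (0.107) and Axin2 (0.0705) with either array and of Ascl2 (0.0917) with the K14Snail array, while the calls of Kremen1 (0.114), Wnt3a (0.137) and Wnt7b (0.216) ended with 4, 5 and 6 of the 8 arrays in turn. That of Wnt7b was also lost with the pool as a fixed block (adjusted p = 0.075), without the filter (0.0545) and after quantile normalization (0.067).

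**Figure D2:**
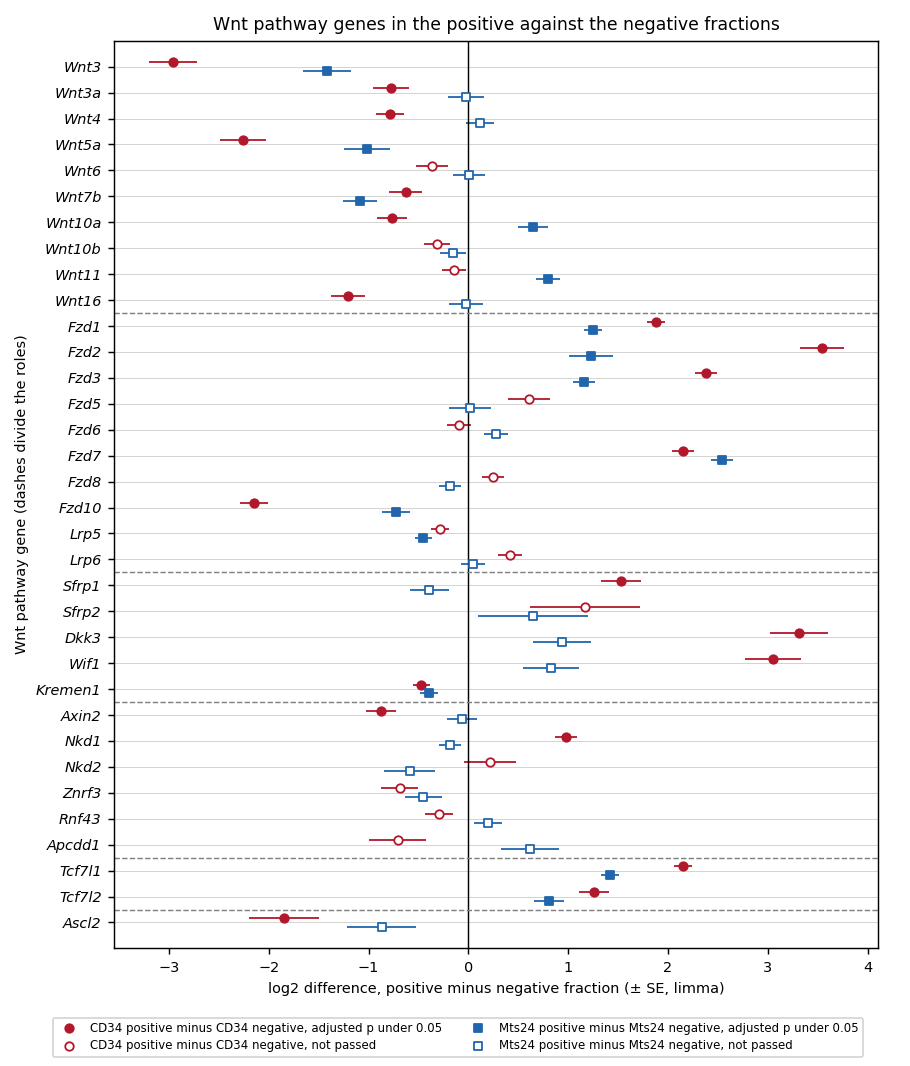
Log2 difference between positive and negative fraction (x axis, limma estimate with its standard error as the bar) for the 34 tested Wnt pathway genes (y axis), with CD34 as red circles and Mts24 as blue squares, filled where the adjusted p is under 0.05. Fzd1, Fzd2, Fzd3 and Fzd7 lie right of 0 in both sorts, Wnt3, Wnt5a and Fzd10 left of 0 in both, and Wnt10a on opposite sides.

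In the Mts24 sort 14 of the 34 tested members passed, 8 higher and 6 lower. Of all genes tested 22.8% passed, 11.1% higher and 11.7% lower. This sort raised all 6 upper follicle markers, but also 9 of the 12 bulge markers. Cd34 itself was at 11.56 in K14Snail and 12.12 in wild type Mts24 positive cells. In Mts24 negative cells it was at 10.51 in K14Snail and 10.03 in wild type. The part of bulge cells in the Mts24 differences was not tested. The median difference of the 34 was 0.01 and that of all genes 0.02. Fzd7 was at 12.08 in K14Snail and 12.04 in wild type Mts24 positive cells, against 9.68 in K14Snail and 9.35 in wild type Mts24 negative cells, a rise of 2.54 ± 0.11, 5.8-fold higher, adjusted p = 0.000579, and the largest among the members in this sort. The 3 other Frizzled genes that were higher in the CD34 sort were higher here too. Fzd1 was at 10.83 in K14Snail and 10.92 in wild type Mts24 positive cells, against 9.61 in K14Snail and 9.64 in wild type Mts24 negative cells (1.25 ± 0.09, 2.37-fold higher, adjusted p = 0.00191). Fzd2 was at 10.12 in K14Snail and 10.38 in wild type Mts24 positive cells, against 9.19 in K14Snail and 8.85 in wild type Mts24 negative cells (1.23 ± 0.22, 2.35-fold higher, adjusted p = 0.0152). Fzd3 was at 8.66 in K14Snail and 8.95 in wild type Mts24 positive cells, against 7.41 in K14Snail and 7.89 in wild type Mts24 negative cells (1.16 ± 0.11, 2.23-fold higher, adjusted p = 0.00336). The arrays of the positive and the negative fraction did not overlap for any of the 4. Fzd10 was again lower, at 9.02 in K14Snail and 9.68 in wild type Mts24 positive cells, against 10.02 in K14Snail and 10.14 in wild type Mts24 negative cells (-0.73 ± 0.14, adjusted p = 0.0189). Lrp5 passed here as slightly lower, at 10.30 in K14Snail and 10.33 in wild type Mts24 positive cells, against 10.70 in K14Snail and 10.83 in wild type Mts24 negative cells (-0.45 ± 0.09, adjusted p = 0.0235). Fzd5 (0.02 ± 0.21, adjusted p = 0.957), Fzd6 (0.28 ± 0.12, adjusted p = 0.152), Fzd8 (-0.18 ± 0.11, adjusted p = 0.282) and Lrp6 (0.05 ± 0.12, adjusted p = 0.816) did not pass.

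The ligands went both ways in Mts24 positive cells. Wnt3 was at 9.48 in K14Snail and 10.03 in wild type Mts24 positive cells, against 10.97 in K14Snail and 11.39 in wild type Mts24 negative cells (-1.42 ± 0.24, 2.68-fold lower, adjusted p = 0.014). Wnt7b was at 8.51 in K14Snail and 9.28 in wild type Mts24 positive cells, against 9.95 in K14Snail and 10.03 in wild type Mts24 negative cells (-1.09 ± 0.17, 2.13-fold lower, adjusted p = 0.0109). Wnt5a was at 7.31 in K14Snail and 7.92 in wild type Mts24 positive cells, against 8.80 in K14Snail and 8.47 in wild type Mts24 negative cells (-1.02 ± 0.23, 2.03-fold lower, adjusted p = 0.0291), its K14Snail positive array being under 7.70. Its place in the count is no support here either, since it passed the filter only with negative arrays. Without any filter the adjusted p of Wnt5a was 0.0302. Wnt10a was instead higher in Mts24 positive cells, at 10.60 in K14Snail and 10.65 in wild type Mts24 positive cells, against 10.11 in K14Snail and 9.83 in wild type Mts24 negative cells (0.65 ± 0.15, 1.57-fold higher, adjusted p = 0.0305). So was Wnt11, another ligand known mainly for signalling without beta-catenin, at 8.28 in K14Snail and 7.89 in wild type Mts24 positive cells, against 7.29 in K14Snail and 7.27 in wild type Mts24 negative cells (0.80 ± 0.12, 1.74-fold higher, adjusted p = 0.00995). Wnt11 reached 7.70 in 3 arrays and would not have passed the filter without the Mts24 positive ones, and without any filter its adjusted p was 0.0102. The other ligands did not pass, with differences of 0.12 ± 0.14 for Wnt4, -0.02 ± 0.18 for Wnt3a, -0.02 ± 0.17 for Wnt16, 0.01 ± 0.16 for Wnt6 and -0.15 ± 0.13 for Wnt10b. In this sort 2 of the 10 tested ligands were higher, 3 lower and 5 not past the threshold, where 11.1% of all genes tested were higher and 11.7% lower.

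Both tested Tcf factors were higher in Mts24 positive cells. Tcf7l1 was at 8.68 in K14Snail and 8.57 in wild type Mts24 positive cells, against 7.30 in K14Snail and 7.11 in wild type Mts24 negative cells (1.42 ± 0.09, 2.68-fold higher, adjusted p = 0.00139). Its negative arrays were under 7.70 here too, and it passed the filter only through positive arrays, so its place in the count is no support. Without any filter its adjusted p was 0.000866. Tcf7l2 was at 9.82 in K14Snail and 9.99 in wild type Mts24 positive cells, against 9.28 in K14Snail and 8.90 in wild type Mts24 negative cells (0.81 ± 0.15, 1.76-fold higher, adjusted p = 0.0154). No secreted inhibitor passed: Sfrp1 had -0.39 ± 0.20, adjusted p = 0.208, Dkk3 0.94 ± 0.29, adjusted p = 0.0704, Wif1 0.83 ± 0.28, adjusted p = 0.087 and Sfrp2 0.65 ± 0.55, adjusted p = 0.446. Kremen1 was at 10.86 in K14Snail and 11.13 in wild type Mts24 positive cells, against 11.22 in K14Snail and 11.54 in wild type Mts24 negative cells, again a small fall (-0.39 ± 0.09, adjusted p = 0.035). None of the 6 feedback inhibitors passed, with differences of -0.06 ± 0.15 for Axin2, -0.18 ± 0.11 for Nkd1, -0.59 ± 0.26 for Nkd2, -0.45 ± 0.19 for Znrf3, 0.20 ± 0.14 for Rnf43 and 0.62 ± 0.29 for Apcdd1. Ascl2 had -0.87 ± 0.35, adjusted p = 0.128.

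Under every alternative tried, the Mts24 calls of Fzd1, Fzd3, Fzd7 and Tcf7l1 held. The other 10 were each lost without at least 1 of the Mts24 arrays, with an adjusted p of up to 0.0811 for Fzd2, 0.0838 for Tcf7l2, 0.0888 for Wnt3, 0.0743 for Wnt7b, 0.0618 for Wnt11, 0.113 for Fzd10, 0.136 for Lrp5, 0.141 for Wnt5a, 0.144 for Wnt10a and 0.181 for Kremen1, and the members called numbered 6 to 8 without 1 of those arrays. With all arrays kept, the calls of Wnt5a (adjusted p = 0.053) and Wnt10a (0.0515) were lost with the pool as a fixed block, and that of Kremen1 without the filter (0.0512) and after quantile normalization (0.0634).

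**Figure D3:**
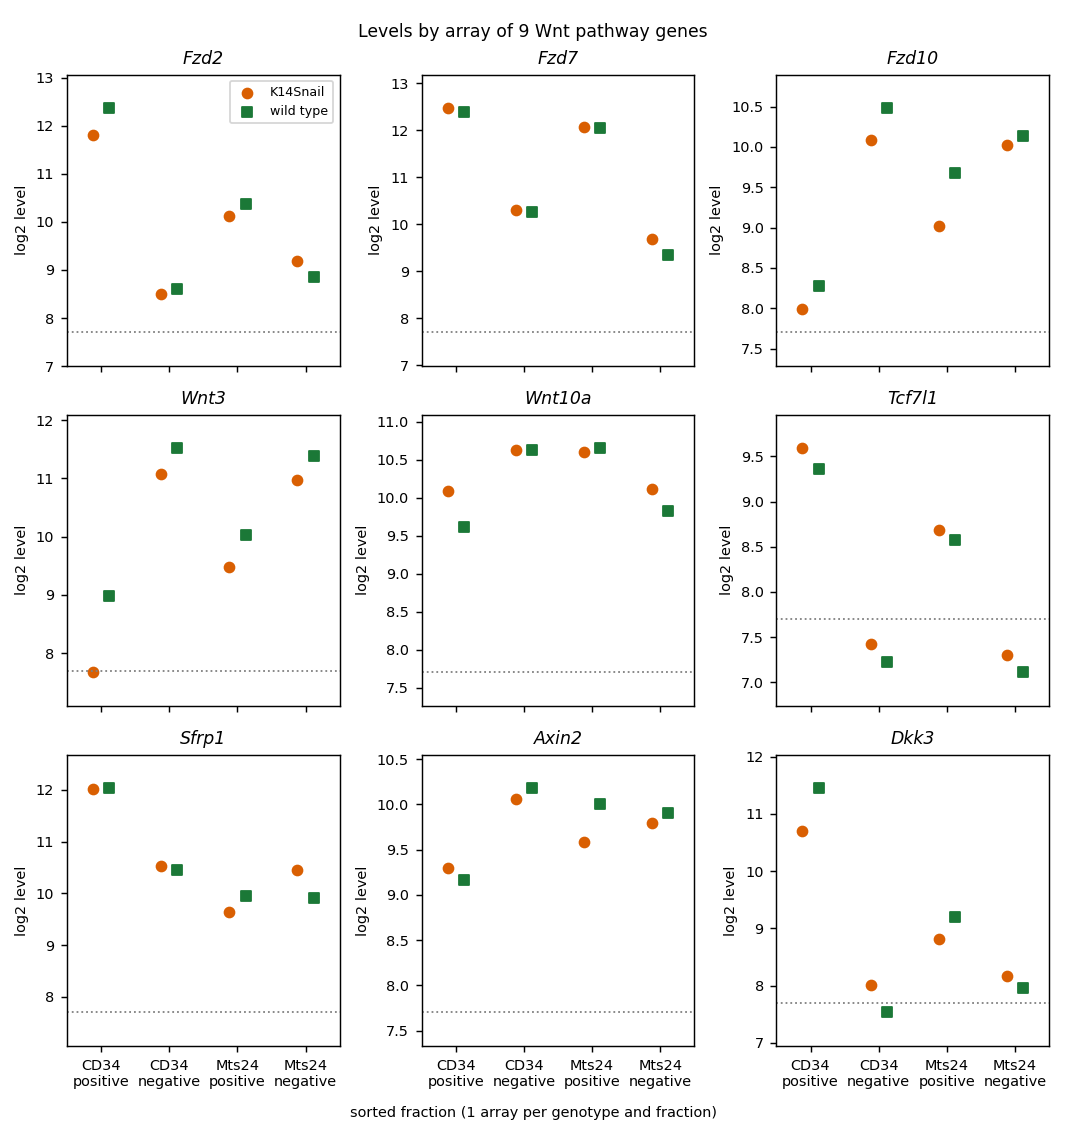
Log2 level by array (y axis, each panel on its own scale) of 9 Wnt pathway genes in the 4 fractions (x axis), with K14Snail as orange circles and wild type as green squares, 1 array per point, and the dotted line at the filter level of 7.70. Fzd7 is near 12 in both positive fractions, whereas Sfrp1 is near 12 in CD34 positive cells alone and between 9.63 and 10.52 in the other 6 arrays.

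Whether the CD34 enrichment was of another size than the Mts24 enrichment was tested directly, as the CD34 difference minus the Mts24 difference. Here 10 of the 34 tested members passed, 7 higher and 3 lower, where 4.08% of all genes tested passed, 2.38% higher and 1.70% lower. The secreted inhibitors differed: Sfrp1 (1.92 ± 0.28, adjusted p = 0.0258), Dkk3 (2.36 ± 0.42, adjusted p = 0.0428) and Wif1 (2.23 ± 0.40, adjusted p = 0.0438) were more enriched in the CD34 sort. Sfrp1 was at 9.63 in K14Snail and 9.94 in wild type Mts24 positive cells, below all 4 arrays of the CD34 sort. Among receptors Fzd2 (2.31 ± 0.31, adjusted p = 0.0198) and Fzd3 (1.23 ± 0.16, adjusted p = 0.0187) were more enriched with CD34, and Fzd10 (-1.41 ± 0.20, adjusted p = 0.0235) was more depleted. Tcf7l1 (0.73 ± 0.12, adjusted p = 0.0372) also leaned to CD34, and the ligand Wnt10a (-1.42 ± 0.21, adjusted p = 0.0279) to Mts24. Nkd1 and Wnt11 are in the count but passed the filter only through the CD34 positive and the Mts24 positive arrays. Tcf7l1 passed it only through the positive arrays of both sorts. Wif1 would not have passed it without positive arrays either, so its place in the count is no support. Without any filter the difference between sorts was 1.16 ± 0.15 for Nkd1 (adjusted p = 0.0178) and -0.94 ± 0.17 for Wnt11, which did not pass (adjusted p = 0.0538). For Tcf7l1 it was then 0.73 ± 0.13 (adjusted p = 0.0498) and for Wif1 2.23 ± 0.37 (adjusted p = 0.0379). Wnt10a was the 1 member that passed in both sorts with opposite signs. For Fzd7 (-0.39 ± 0.15, adjusted p = 0.268), Fzd1 (0.63 ± 0.13, adjusted p = 0.0677), Tcf7l2 (0.45 ± 0.21, adjusted p = 0.337), Wnt3 (-1.54 ± 0.35, adjusted p = 0.0798), Wnt4 (-0.92 ± 0.19, adjusted p = 0.07), Axin2 (-0.82 ± 0.21, adjusted p = 0.107) and Wnt7b (0.46 ± 0.24, adjusted p = 0.407) the difference between sorts did not pass. With the pool as a fixed block only the calls of Fzd2 and Nkd1 held, and without 1 array the number of members called was 0 to 12. The calls of Dkk3 (adjusted p = 0.0502), Wif1 (0.0596) and Tcf7l1 (0.0618) were also lost after quantile normalization. Those of Dkk3 and Wif1 were lost with a robust prior too.

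Genotype was compared over the 4 fractions, with 1 pair of arrays in each, to see what Snail expression changes in the pathway. Of the 34 tested members 2 passed, both lower in K14Snail, where 2.05% of all genes tested passed, 0.914% lower and 1.14% higher. Fzd8 was at 8.72 in K14Snail and 9.33 in wild type CD34 positive cells, at 8.59 in K14Snail and 8.96 in wild type CD34 negative cells, at 8.32 in K14Snail and 8.75 in wild type Mts24 positive cells and at 8.56 in K14Snail and 8.87 in wild type Mts24 negative cells. The genotype difference of Fzd8 was -0.43 ± 0.06, 1.35-fold lower, adjusted p = 0.0406, lower in 4 of 4 pairs. Wnt10b, a canonical ligand of the growing follicle, was at 7.60 in K14Snail and 7.92 in wild type CD34 positive cells, at 7.76 in K14Snail and 8.37 in wild type CD34 negative cells, at 7.64 in K14Snail and 8.31 in wild type Mts24 positive cells and at 7.98 in K14Snail and 8.26 in wild type Mts24 negative cells. It was lower in 4 of 4 pairs (-0.47 ± 0.08, 1.38-fold lower, adjusted p = 0.0487). Both K14Snail positive arrays of Wnt10b lay under 7.70, so the size of its difference depends on the background. Without the pool block neither passed: the adjusted p was 0.0723 for Fzd8 and 0.0933 for Wnt10b. Both calls were also lost without any 1 of the 8 arrays, with differences that stayed at -0.37 to -0.47 for Fzd8 and at -0.41 to -0.52 for Wnt10b.

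The remaining members did not pass for genotype, whatever their sign. Of the 34, 15 had the same sign in 4 of 4 pairs, where 31.6% of all genes tested did. Of these, 9 were lower in K14Snail in 4 of 4 pairs, where 12.6% of all genes tested were, and 6 were higher in 4 of 4 pairs, where 18.9% were. The 9 are the ligands Wnt3, Wnt4, Wnt7b and Wnt10b, the receptors Fzd3, Fzd5, Fzd8 and Fzd10, and Kremen1. Pairs of the same pool are not independent, so these counts describe the arrays and test nothing. Wnt3 had the lowest mean difference of the 34 (-0.68 ± 0.15, adjusted p = 0.0763), followed by Ascl2 (-0.55 ± 0.20, adjusted p = 0.171). Fzd3 (-0.40 ± 0.07, adjusted p = 0.0523), Fzd5 (-0.48 ± 0.12, adjusted p = 0.101) and Fzd10 (-0.37 ± 0.08, adjusted p = 0.0809) were on the same side. The 6 higher in all pairs are Wnt6, Wnt11, Fzd7, Sfrp2, Wif1 and Tcf7l1, with mean differences between 0.12 for Fzd7 and 0.95 for Sfrp2 (adjusted p = 0.155 for Sfrp2).

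**Figure D4:**
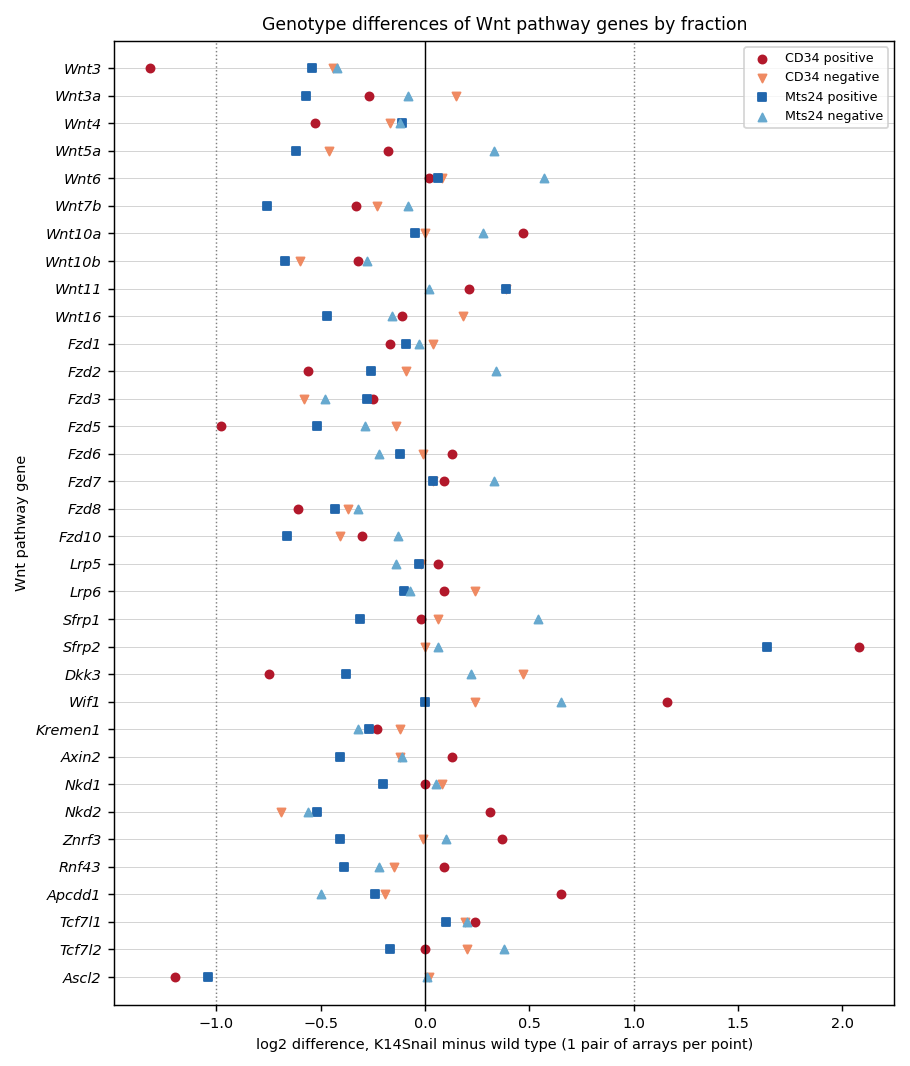
Log2 difference between K14Snail and wild type (x axis) for the 34 tested Wnt pathway genes (y axis), 1 point per fraction and pair of arrays, with dotted lines at -1 and 1. Sfrp2 and Ascl2 lie beyond these lines in both positive fractions and near 0 in both negative fractions.

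Within a fraction each genotype has 1 array and no test is possible, so differences of at least 1 on the log2 scale were counted. In CD34 positive cells 4 tested members differed by that much, Sfrp2 (2.08) and Wif1 (1.16) higher in K14Snail, and Wnt3 (-1.32) and Ascl2 (-1.20) lower, where 4.94% of all genes tested did. In Mts24 positive cells the 2 were Sfrp2 (1.64) and Ascl2 (-1.04), where 1.91% of all genes did. No tested member did in CD34 negative cells (0.858% of all genes) or in Mts24 negative cells (0.737%). Sfrp2 passed the filter only through its 2 K14Snail positive arrays, so its place in both counts of the positive fractions is no support.

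Sfrp2 and Ascl2 had the same form in both sorts. Sfrp2, a secreted Frizzled-related protein, was at 8.63 in K14Snail and 6.55 in wild type CD34 positive cells and at 7.99 in K14Snail and 6.35 in wild type Mts24 positive cells. In the negative fractions it was at 6.42 in K14Snail and 6.41 in wild type CD34 negative cells and at 6.55 in K14Snail and 6.49 in wild type Mts24 negative cells. It therefore stood above 7.70 in the 2 K14Snail positive arrays alone, and it passed the filter only through them. Ascl2 was at 7.32 in K14Snail and 8.52 in wild type CD34 positive cells and at 8.16 in K14Snail and 9.20 in wild type Mts24 positive cells, against 9.54 to 9.78 in the 4 negative arrays. The test of genotype by positive fraction asks whether the genotype difference is of another size in positive than in negative fractions. Its estimate was 1.83 ± 0.19 for Sfrp2 and -1.14 ± 0.14 for Ascl2, given as a description since both are named here for this pattern. Dkk3 was next at -0.91 ± 0.19 (adjusted p = 0.34), with genotype differences of -0.75 (CD34) and -0.38 (Mts24) in the positive fractions, but of 0.47 (CD34) and 0.22 (Mts24) in the negative fractions. With limma 0 of 10720 genes passed this test (0%). An unadjusted p under 0.05 was found for 845 of the 10720 genes and 4 of the 34 members, Sfrp2, Ascl2, Dkk3 and Fzd5. Sfrp2 passed the filter only through arrays that this test sets apart, so its place among the 4 is no support. Without 1 of the CD34 positive arrays 2 members passed and without 1 of the Mts24 positive arrays 7 did, but each such run rests on the 1 positive pair that is left, and nothing is drawn from it. The test of genotype by sorting marker also called 0 genes (0%), with 436 genes and 0 members at an unadjusted p under 0.05.

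Markers of other cells differed between the same arrays. Myeloid and Langerhans markers had a mean log2 level of 8.91 in K14Snail and 7.45 in wild type CD34 positive cells, and of 8.79 in K14Snail and 7.36 in wild type Mts24 positive cells. Of the 11 myeloid markers 9 reached 7.70 in either K14Snail positive array, against 4 in the wild type CD34 positive and 3 in the wild type Mts24 positive array. The fibroblast list had means of 7.52 in K14Snail and 7.29 in wild type CD34 positive cells, and of 7.10 in K14Snail and 7.05 in wild type Mts24 positive cells, with 4 of 9 markers at 7.70 or above in each of these arrays. Of this list Dcn, Fbln2 and Lum read higher in K14Snail in both positive fractions, Col3a1 and Dpt read lower in both, and the others differed in sign. Dcn was at 7.64 in K14Snail and 6.37 in wild type CD34 positive cells. In Mts24 positive cells it was at 7.54 in K14Snail and 6.64 in wild type, all under 7.70. Sebaceous markers had means of 7.62 in K14Snail and 9.54 in wild type CD34 positive cells, and of 8.32 in K14Snail and 8.46 in wild type Mts24 positive cells. The smooth muscle gene Acta2 was at 10.31 in K14Snail and 7.42 in wild type CD34 positive cells and at 9.38 in K14Snail and 8.07 in wild type Mts24 positive cells, while Myh11, Rgs5, Pdgfrb, Des and Tagln of the same list were under 7.70 in all arrays. Of the 6 dermal papilla markers on the array, no more than 1 reached 7.70 in any array, with list means of 6.35 to 6.85. Suprabasal markers had means of 11.34 in K14Snail and 12.49 in wild type CD34 positive cells, and of 12.41 in K14Snail and 12.63 in wild type Mts24 positive cells. The part of these cells in the Sfrp2, Ascl2, Wif1 and Wnt3 differences was not tested.

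**Figure D5:**
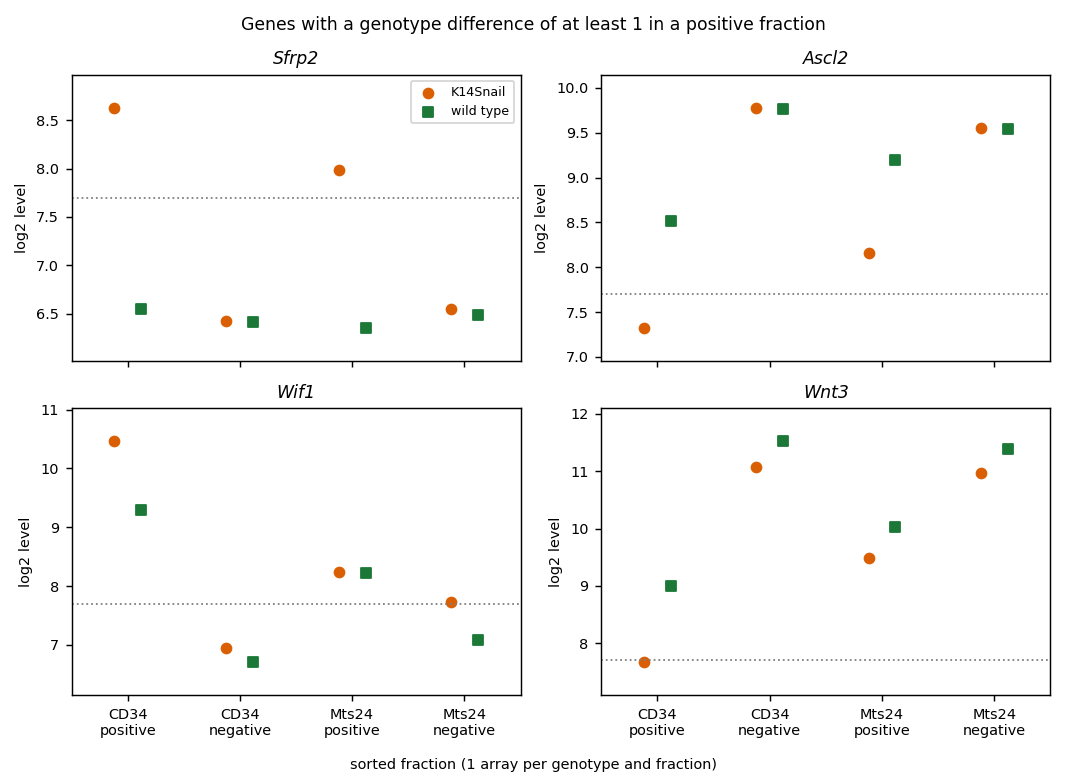
Log2 level by array (y axis, each panel on its own scale) of the 4 genes with a genotype difference of at least 1 in a positive fraction, in the 4 fractions (x axis), with K14Snail as orange circles, wild type as green squares and the filter level of 7.70 dotted. Sfrp2 stands above the line in the 2 K14Snail positive arrays alone, and Ascl2 is lowest in those 2 arrays.

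Members that were not tested read low throughout. Dkk1, Dkk2, Notum, Rspo1, Sp5, Wnt7a, Fzd4 and Sfrp4 were under 7.70 in all 8 arrays, so no detection can be claimed for them. Just outside the filter stood Lef1, with 1 array at 8.29, and just inside it Nkd1 and Sfrp2, with 2 arrays each. When every gene was tested without the filter, Lef1 (1.27 ± 0.23, adjusted p = 0.0139), Sfrp4 (1.05 ± 0.18, adjusted p = 0.012) and Fzd4 (0.66 ± 0.15, adjusted p = 0.033) were higher in CD34 positive cells. At these levels the size of such differences depends on the background. Of Sfrp4 the CD34 positive arrays read 6.44 in K14Snail and 6.19 in wild type, against 5.35 and 5.18 in the CD34 negative arrays of the same genotypes. The Dkk2 arrays lay between 6.00 and 6.29.

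A further list held 75 other genes of the pathway, 55 of them tested. In CD34 positive cells 15 were higher and 8 lower, where 12.1% of all genes were higher and 11.6% lower. The R-spondin receptor Lgr5, a stem cell gene, was at 12.23 in K14Snail and 12.38 in wild type CD34 positive cells, against 7.07 in K14Snail and 6.87 in wild type CD34 negative cells (5.33 ± 0.26, 40.3-fold higher, adjusted p = 0.000283), the largest rise. Shisa2, which holds back Frizzled maturation (3.0 ± 0.22, 8-fold higher, adjusted p = 0.00076), and the receptor Fzd9 (2.46 ± 0.23, 5.48-fold higher, adjusted p = 0.00139) followed. Fzd9 was at 7.28 in K14Snail and 7.10 in wild type CD34 negative cells. It would not have passed the filter without the CD34 positive arrays, so its place in the count is no support. The same holds for the receptor Ror2, also among the 15, which reached 7.70 in the CD34 positive arrays alone. The Groucho-type corepressor Tle1 (1.68 ± 0.30, adjusted p = 0.0115) and Lgr4, another R-spondin receptor (1.34 ± 0.12, adjusted p = 0.00131), were higher too. Lower were the glypican Gpc3 (-2.79 ± 0.35, adjusted p = 0.00374), the R-spondin gene Rspo3 (-2.44 ± 0.22, adjusted p = 0.00127), the Wnt target Tnfrsf19 (-1.95 ± 0.10, adjusted p = 0.000321), the receptor Lrp4 (-1.79 ± 0.11, adjusted p = 0.000507) and the planar polarity cadherin Celsr1 (-1.07 ± 0.11, adjusted p = 0.00203). Rspo3 and Gpc3 read under 7.70 in both CD34 positive arrays, so the size of these falls depends on the background. Lgr5 and Fzd9 read under 7.70 in both CD34 negative arrays, so the size of their rises depends on it too.

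In Mts24 positive cells 11 of these 55 genes were higher and 3 lower, where 11.1% of all genes were higher and 11.7% lower. Sostdc1, a secreted antagonist of Wnt and BMP signals, was at 13.00 in K14Snail and 13.04 in wild type Mts24 positive cells, against 10.59 in K14Snail and 10.99 in wild type Mts24 negative cells (2.23 ± 0.18, 4.68-fold higher, adjusted p = 0.00203), the largest rise. Tle1 (1.93 ± 0.30, adjusted p = 0.0102), the planar polarity gene Vangl1 (1.63 ± 0.12, adjusted p = 0.00192), the glypican Gpc4 (1.55 ± 0.15, adjusted p = 0.00336) and Prickle2 (1.30 ± 0.19, adjusted p = 0.00896) came next. Rspo3 (-1.19 ± 0.22, adjusted p = 0.0163), Lrp4 (-1.17 ± 0.11, adjusted p = 0.00331) and the beta-catenin inhibitor Ctnnbip1 (-0.80 ± 0.15, adjusted p = 0.0183) were lower. The CD34 and Mts24 enrichments differed for Lgr5 (4.36 ± 0.37, adjusted p = 0.00883), Fzd9 (2.24 ± 0.32, adjusted p = 0.0247), Shisa2 (2.06 ± 0.32, adjusted p = 0.03), Tnfrsf19 (-1.92 ± 0.15, adjusted p = 0.00666), Sostdc1 (-1.44 ± 0.25, adjusted p = 0.0418) and Vangl1 (-1.11 ± 0.17, adjusted p = 0.0331). Of all genes tested 4.08% differed between the sorts. Fzd9 would not have passed the filter without its CD34 positive arrays, so its place among these genes is no support. For genotype 1 of the 55 passed, where 2.05% of all genes tested did, so the count is near that share. It was Prickle1 (-0.39 ± 0.06, adjusted p = 0.0444), which did not pass without the pool block (adjusted p = 0.0859).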

How the data were processed

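RNA of sorted keratinocytes from pooled mice was hybridised to Affymetrix arrays, 1 array in each of 8 groups. The deposited log2 values are RMA output of the authors, as the submitters' processing notes state. The RMA version and the genome build are not given in the sources used here. Of 28874 probe sets 21789 carry 1 gene symbol, 1621 several and 5464 none. Only those with 1 symbol were used, and per gene the probe set with the highest mean. The 44 members and the other lists were chosen with earlier results of these data known.

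With R 4.3.3 and limma 3.58.1, a model of the 4 fractions plus genotype was fitted to 10720 genes. Each pool (genotype by sorting marker) was a random block with a correlation of -0.175. The threshold was a Benjamini-Hochberg adjusted p of 0.05. The scripts were tested on simulated data. Further terms tested genotype by positive fraction and, without the block, genotype by marker. Marker differences rest on 2 pairs of arrays. Genotype was compared in 4 pairs, but it varied only between the 4 pools, so these pairs are not 4 independent replicates. The number of arrays and pools thus limits the precision. With the negative block correlation the genotype standard error was 0.06 for Fzd8 and 0.08 for Wnt10b, against 0.07 and 0.09 without the block. Genotype p-values with the block are therefore less cautious than those without it. The labels match the fractions by pool size and do not state that they share mice, so p-values measure the spread between these arrays. Levels of different genes are not comparable, since probe sets differ in sensitivity. All tested members could be named. Members that passed were to be given by array, and of the other pathway genes the 5 with the largest change in each direction.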

Additional observations from a re-analysis of the deposited data

How the results depend on the processing

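With limma, 21 members were called for CD34 and 14 for Mts24, and outside the runs that left out 1 array those counts stayed at 20 to 23 and at 12 to 14. The CD34 enrichment minus the Mts24 enrichment gave 10 members as reported and 2 with the pool as a fixed block, with 7 to 11 under the other settings that kept all arrays. For genotype the count was 2 as reported. It was 3 after quantile normalization, which added Fzd3 (adjusted p = 0.0418), and 2 with an intensity trend, which called Fzd3 in place of Wnt10b. It was 0 without the pool block, 0 without the filter, 1 after median centring, 1 with a robust prior, and 0 without the CD34 arrays or without the Mts24 arrays. Over all genes the genotype calls numbered 220 as reported, 41 without the pool block, 1 without the CD34 arrays and 0 without the Mts24 arrays. Leaving out 1 array at a time gave 14 to 22 members for CD34, 6 to 18 for Mts24, 0 to 12 for the difference of enrichments, 0 to 1 for genotype, 0 to 7 for genotype by positive fraction and 0 to 0 for genotype by marker. No named value changed direction past the threshold under any alternative tried. The labels carry no replicate numbers, so fractions were paired by pool alone, and the fixed block gave 21 members for CD34 and 12 for Mts24.

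The limits are those of 8 arrays with 3 residual degrees of freedom. The line of 7.70 is the median over named genes, and no background level was estimated. Whether a level under it lies above background was not tested, so differences into that range are of uncertain size. The leave-one-out runs used the pool correlation of the whole table, since 7 arrays did not allow a new estimate.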

Other observations

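Planar cell polarity genes, which orient hairs and cells within the skin, were described by a list of 12, of which 8 were tested. In CD34 positive cells Prickle2 and Vangl1 were higher and Celsr1, Celsr2 and Prickle1 lower, where 12.1% of all genes were higher and 11.6% lower. In Mts24 positive cells Prickle2 and Vangl1 were higher and 0 were lower, where 11.1% of all genes were higher and 11.7% lower. The Mts24 count is near the 22.8% of all genes called, so these counts only describe the 8 genes. Vangl1 was at 10.97 in K14Snail and 10.74 in wild type Mts24 positive cells, against 9.22 in K14Snail and 9.24 in wild type Mts24 negative cells. It was the 1 of the 8 whose enrichment differed between the sorts, where 4.08% of all genes tested did. Its CD34 enrichment minus its Mts24 enrichment was -1.11 ± 0.17, adjusted p = 0.0331. The hair follicle polarity cadherin Celsr1 was at 9.80 in K14Snail and 10.19 in wild type CD34 positive cells, against 11.04 in K14Snail and 11.10 in wild type CD34 negative cells.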
